A study of Mus musculus with 2 samples.

Results

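The genes described here are 10 RNA-binding regulators of neural splicing, Ptbp1, Ptbp2, Rbfox1, Rbfox2, Rbfox3, Nova1, Nova2, Srrm4, Mbnl1 and Mbnl2. They were chosen by symbol, and each symbol matched 1 of the 43346 Ensembl genes in both deposited gene tables. The samples formed 1 group, midbrain of B6NCrl mouse embryos at 16.5 days of gestation, with males and females pooled. There were 2 biological replicates, each sequenced as 1 total RNA library from 10 ng of RNA longer than 200 nt with spike-in RNA. Replicate 2 came from 37 embryos, the number of embryos behind replicate 1 was not given in the sources used here, and both carry the same donor label. No allele, treatment or second condition was present, so levels, their order and the spread between libraries are described and no test between conditions was possible.

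Most genes of neurons are spliced into several forms, and the choice of exons is set by proteins that bind the pre-mRNA near them. PTB proteins mostly repress exons, and neurons replace Ptbp1, found in progenitors and many other cells, with its relative Ptbp2. RBFOX proteins bind GCATG-containing elements, NOVA proteins bind clusters of YCAY, SRRM4 promotes very short neural exons called microexons, and muscleblind (MBNL) proteins drive switches from fetal to adult splice forms.

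The libraries held 31830355 expected counts (replicate 1) and 36576263 (replicate 2), an expected count being a read number after reads that fit several transcripts were shared among them. Levels between genes are compared in TPM, an abundance scaled to a fixed total per library after division by transcript length. The tissue label was checked on region markers. Otx2, a midbrain and forebrain factor, was at 56.3 and 64.5 TPM, and Th, the enzyme of dopamine synthesis, was at 15.1 and 24.0 TPM. En1 and En2, factors of the midbrain and the adjoining hindbrain, were at 4.99 and 6.34 TPM and at 0.61 and 0.46 TPM. The hindbrain gene Hoxb3 was at 0.05 and 0 TPM, and the cortical gene Neurod6 was present at 11.4 and 15.2 TPM. Tubb3, a neuronal tubulin, was at 1816 and 1744 TPM, while Fabp7, a gene of radial glia, was at 1253 and 1565 TPM. The 10 neuron markers had a median of 218 TPM and the 12 progenitor markers 19.4 TPM. In such bulk tissue, fewer cells of a type and less RNA per cell cannot be told apart.

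All 10 regulators reached 1 TPM in both libraries, as did 62.1% of 21474 protein-coding genes. All 10 also reached 10 TPM in both, as did 41.2% of those genes. Their median was 47.6 TPM ± 0.643 (SD, n = 2), against 20.3 TPM for detected protein-coding genes, and they summed to 643 and 641 TPM. The lowest, Mbnl2, stood at percentile 35.1 of detected protein-coding genes and the highest, Ptbp2, at percentile 92.3. Between 1004 and 12297 expected counts lay behind each value. Ordered by mean TPM, the genes ran Ptbp2, Rbfox1, Rbfox2, Nova1, Ptbp1, Rbfox3, Mbnl1, Nova2, Srrm4 and Mbnl2, a range of 13.5-fold. By expected counts, not divided by length, the order began with Rbfox2, Nova1, Ptbp2 and Rbfox1 and ended with Mbnl2. Of the 9 neighbouring pairs, 7 did not overlap between their libraries. Ptbp2 and Rbfox1 overlapped, as did Nova2 and Srrm4, and Rbfox3 and Mbnl1 were separated by their libraries but not by their deposited credibility intervals.

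**Figure D1:**
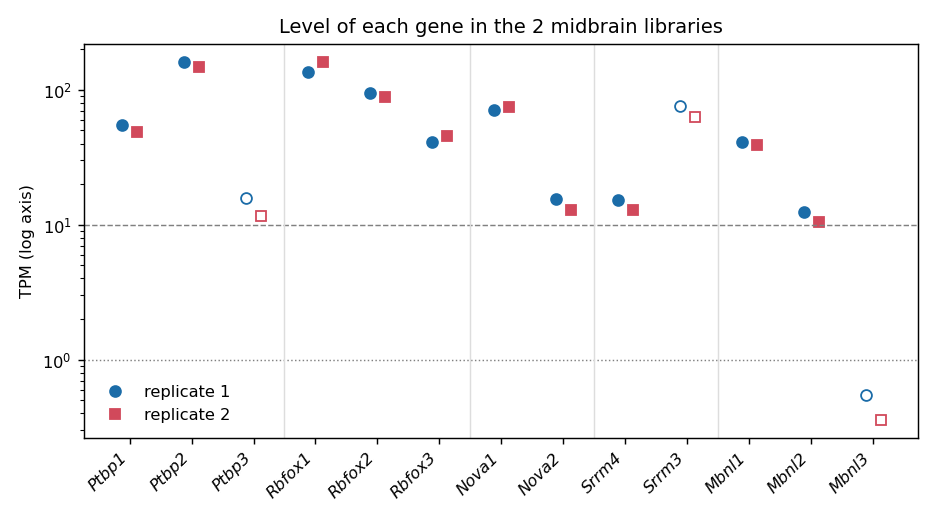
TPM on a log axis (vertical) for each regulator (filled) and for 3 close relatives (open), with circles for replicate 1 and squares for replicate 2; vertical lines separate the families and dashed and dotted lines mark 10 and 1 TPM. All 10 regulators lie above 10 TPM in both libraries, and Mbnl3 lies below 1 TPM. By expected counts the order of Rbfox1 and Rbfox2, and of Srrm4 and Srrm3, turns.

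The PTB family was dominated by Ptbp2, the neuronal member (gene ENSMUSG00000028134.7, GRCm38 chr3:119718742-119784466, minus strand). Ptbp2 was at 160.8 TPM in replicate 1 and 147.9 TPM in replicate 2, from 9713 and 10410 counts. Ptbp1 (ENSMUSG00000006498.12, chr10:79854427-79864771, plus strand), the form of progenitors and non-neural cells, was at 55.0 and 48.9 TPM. Ptbp3, the third member, was at 15.9 and 11.6 TPM. Both libraries gave the same order, and Ptbp2 was 2.97-fold higher than Ptbp1, a log2 ratio of TPM of 1.57 ± 0.034 (SD, n = 2). Ptbp2 therefore held 70.2% ± 1.11 of the family's TPM, Ptbp1 23.6% ± 0.188 and Ptbp3 6.22% ± 0.92.

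Ptbp1 shares 251 bases of exon, 178 of them in coding models, with Plppr3, a lipid phosphatase-related gene of neurons on the opposite strand, at 398 and 392 TPM. It also shares 295 bases with E130317F20Rik, at 3.55 and 2.75 TPM, and 437 bases with the antisense gene Gm17134, listed at 0 TPM in both libraries. The kit that the labels link to was taken as one that does not mark strand, and the use of strand in the counting was not given. Reads over the shared bases may then not be told apart, and the level of Ptbp1 is uncertain to that extent.

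Both PTB genes hold a 34-base exon whose skipping shifts the reading frame and leads to decay of the mRNA. In Ptbp2 this exon is repressed by PTBP1 itself, which keeps Ptbp2 protein low outside neurons, and in Ptbp1 the skipping is autoregulatory. The exons (capitals) are shown with 15 bases of the neighbouring exons (lower case), since this exon links both genes.
Ptbp1, chr10:79862014-79862047, plus strand: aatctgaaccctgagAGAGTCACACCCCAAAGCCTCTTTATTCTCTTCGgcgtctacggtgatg
Ptbp2, chr3:119724612-119724645, minus strand: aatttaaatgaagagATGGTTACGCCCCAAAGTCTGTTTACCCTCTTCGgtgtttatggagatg
The exons were identical at 26 of 34 positions, and the flanks at 9 and 11 of 15. For Ptbp1, inclusion was read as the share of TPM on spanning coding and decay models that contain the exon. Models without the exon held 3.43% in replicate 1 and 4.46% in replicate 2, all on the decay model Ptbp1-201, with 50.7 and 67.7 counts. Because mRNA without the exon decays, these are shares of the RNA present and can lie below the share spliced that way. Ptbp2 had 1 annotated transcript, Ptbp2-201, with the exon in it, so skipping in Ptbp2 was not measurable in these tables.

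Ptbp1 also carries a 78-base exon in the linker between its RNA-binding domains, and forms without it repress some neural exons less strongly. It keeps the frame.
Ptbp1, chr10:79860117-79860194, plus strand: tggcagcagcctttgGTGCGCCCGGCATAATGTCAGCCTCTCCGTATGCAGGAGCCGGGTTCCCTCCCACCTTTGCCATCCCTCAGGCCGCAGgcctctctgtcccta
This exon was included at 44.5% in replicate 1 and 40.9% in replicate 2, or 42.7% ± 2.55 (SD, n = 2). Models with and without it were thus of similar abundance. Ptbp1-216, with the exon, held 38.9% and 35.4% of the gene's TPM, and Ptbp1-202, without it, held 36.5% and 39.5%. By these shares the models changed places as the leading transcript between libraries. By posterior mean shares, another deposited estimate, Ptbp1-202 led in both, at 35.38% and 37.35% beside 33.61% and 30.43% for Ptbp1-216. The lead thus depended on the estimate. Ptbp1-202 also uses a shorter form of an exon upstream, lacking 120 bases, and the long form held 56.7% and 52.4%.

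Among the RBFOX genes, Rbfox1 had the highest TPM and Rbfox2 the most reads. Rbfox1 (ENSMUSG00000008658.11, chr16:5885355-7411526, plus strand), a regulator of neurons, muscle and heart, was at 136.3 and 161.0 TPM. Rbfox2 (ENSMUSG00000033565.12, chr15:77078990-77307004, minus strand), the broadly expressed member, was at 95.3 and 87.8 TPM. The libraries of the 2 genes did not overlap, and the log2 ratio of Rbfox1 to Rbfox2 was 0.70 ± 0.25 (SD, n = 2). The direction turned with the unit, with a log2 ratio of expected counts of -1.47, from 3661 and 5009 counts for Rbfox1 and 11461 and 12297 for Rbfox2. The deposited effective length was 1452 and 1443 bases for Rbfox1 and 6497 bases for Rbfox2 in both libraries. Rbfox1-202, a model of 1191 bases with only 3 noncoding bases, held 87.6% and 87.9% of Rbfox1, whereas Rbfox2-203, of 6573 bases, held 70.4% and 66.4% of Rbfox2. Which of the 2 genes made more transcripts is therefore not settled by these tables.

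Rbfox3 (ENSMUSG00000025576.13, chr11:118489762-118911597, minus strand) encodes NeuN, a nuclear protein used as a marker of mature neurons. It was at 41.2 and 45.4 TPM, the lowest of the family in both libraries, from 1904 and 2418 counts. Rbfox1 held 52.3% ± 3.37 of the family's TPM, Rbfox2 32.4% ± 3.61 and Rbfox3 15.3% ± 0.247. By expected counts the shares were 23.4% ± 2.75 for Rbfox1, 64.8% ± 3.51 for Rbfox2 and 11.7% ± 0.761 for Rbfox3, so the leading member turned with the unit. Rbfox3 was 2.12-fold lower than Rbfox2, a log2 ratio of -1.08 ± 0.18, and the gap was wider by expected counts, at -2.47. Rbfox1 was 3.43-fold higher than Rbfox3, with a log2 ratio of 1.78 ± 0.070, and by expected counts the log2 ratio was 1.00.

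Rbfox3 was split among 4 coding models at 19.8% to 33.9% of its TPM each, and 1 of the exons in which these differ lies late in the coding sequence. The long form of that exon, of 181 bases, starts 141 bases upstream of the short form, of 40 bases. Those 141 bases (capitals) are a whole number of codons and are shown because they separate the main forms of the protein.
Rbfox3, chr11:118496391-118496531, minus strand: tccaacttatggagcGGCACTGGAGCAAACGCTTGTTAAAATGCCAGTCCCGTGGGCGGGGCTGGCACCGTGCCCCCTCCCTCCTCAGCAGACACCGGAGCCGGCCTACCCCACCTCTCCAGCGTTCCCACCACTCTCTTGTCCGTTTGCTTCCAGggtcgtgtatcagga
The long form held 42.2% in replicate 1 and 41.7% in replicate 2, or 42.0% ± 0.404 (SD, n = 2). A second choice known in this family is a 93-base exon of the RNA-binding domain, and forms without it bind RNA poorly.
Rbfox3, chr11:118502842-118502934, minus strand: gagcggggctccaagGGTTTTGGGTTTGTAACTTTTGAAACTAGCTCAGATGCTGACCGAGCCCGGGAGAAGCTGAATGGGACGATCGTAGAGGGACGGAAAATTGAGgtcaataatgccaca
The exon was included at 100% and 99.7%, and the model without it, Rbfox3-202, had 0 and 3.96 counts. The exon of the RNA-binding domain was thus in nearly all spanning transcripts, while the exon near the end was divided.

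Nova1 was much the higher of the NOVA genes, regulators known for exons of synaptic proteins. Nova1 (ENSMUSG00000021047.6, chr12:46694517-46818929, minus strand) was at 70.9 and 75.1 TPM. Nova2 (ENSMUSG00000030411.11, chr7:18925888-18965319, plus strand), the member best known in cortex, was at 15.4 and 13.0 TPM. Nova1 was 5.16-fold higher, a log2 ratio of 2.37 ± 0.24 (SD, n = 2), and held 83.7% ± 2.23 of the pair. Nova1 was higher and Nova2 lower in replicate 2, so this ratio had a wider spread than that of Ptbp2 over Ptbp1. For Nova2, 54.3% and 59.9% of TPM lay on a transcript that the reference annotation used here does not hold. Nova2 also shares 2652 exon bases with Gm26821 on the opposite strand, listed at 0 TPM in both libraries, so the uncertainty over strand given for Ptbp1 applies to Nova2 too. With coding transcripts of that annotation alone, Nova2 averaged 6.12 TPM and the log2 ratio was 3.59.

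Srrm4 (ENSMUSG00000063919.8, chr5:116439275-116591817, minus strand), also called nSR100, was at 15.1 and 12.8 TPM, from 2047 and 2025 counts. A single coding model, Srrm4-201, held 97.4% and 96.7%. The gene shares 68 exon bases with its antisense partner Srrm4os, at 4.71 and 3.76 TPM. Srrm3, the related microexon activator, was listed at 75.3 and 63.2 TPM, 4.95-fold above Srrm4, with a log2 ratio of Srrm4 to Srrm3 of -2.31 ± 0.011 (SD, n = 2). This order rested on 1 short model, Srrm3-202, of 526 bases, with 68.0% and 61.6% of the TPM of Srrm3. By expected counts the log2 ratio was 0.56, and with coding models of at least 1000 bases it was 0.73, both in favour of Srrm4. The order of the 2 microexon activators is therefore not settled.

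Mbnl1 was the main muscleblind gene. Mbnl1 (ENSMUSG00000027763.9, chr3:60472830-60629750, plus strand) was at 41.0 and 38.7 TPM, and Mbnl2 (ENSMUSG00000022139.12, chr14:120275669-120431697, plus strand), the form with a leading role in adult brain, was at 12.3 and 10.5 TPM. Mbnl2 shares 86 exon bases with the antisense gene Gm26679, at 1.03 and 1.44 TPM. Mbnl3 was at 0.55 and 0.36 TPM, with 26 and 12 counts. Mbnl1 was 3.50-fold above Mbnl2, a log2 ratio of 1.81 ± 0.11 (SD, n = 2). With coding models of at least 1000 bases only, the log2 ratio was 0.92, still in favour of Mbnl1. A short partial model, Mbnl1-210, of 576 bases, held 17.7% and 19.5% of the gene on 64.1 and 77.5 counts.

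Mbnl1 regulates its own splicing, and its alternative exons change where the protein goes in the cell and how it pairs with itself. The 54-base exon is needed for nuclear location and is typical of fetal forms, and the 36-base exon supports self-association.
Mbnl1, chr3:60614683-60614736, plus strand: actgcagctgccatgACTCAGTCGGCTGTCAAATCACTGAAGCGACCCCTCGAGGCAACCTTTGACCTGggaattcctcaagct
Mbnl1, chr3:60621423-60621458, plus strand: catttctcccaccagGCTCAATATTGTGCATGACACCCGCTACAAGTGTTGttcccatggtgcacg
The 54-base exon was included at 68.3% in replicate 1 and 72.2% in replicate 2, or 70.2% ± 2.77 (SD, n = 2). The 36-base exon was included at 51.3% and 41.6%, or 46.5% ± 6.92, the widest spread among the exons named here in the regulators. Another choice, between a 154-base and a 49-base form of the exon after the 54-base exon, fell to the long form at 85.2% and 83.6%. The 36-base exon holds 1 copy of TGCATG, the RBFOX element, starting at base 12. Read in the sense of the mRNA, this motif was in 5 of 452 annotated internal coding exons of 36 bases, or 1.11%, and its reverse complement CATGCA was in 0. The match describes letters and is no evidence of binding.

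**Figure D2:**
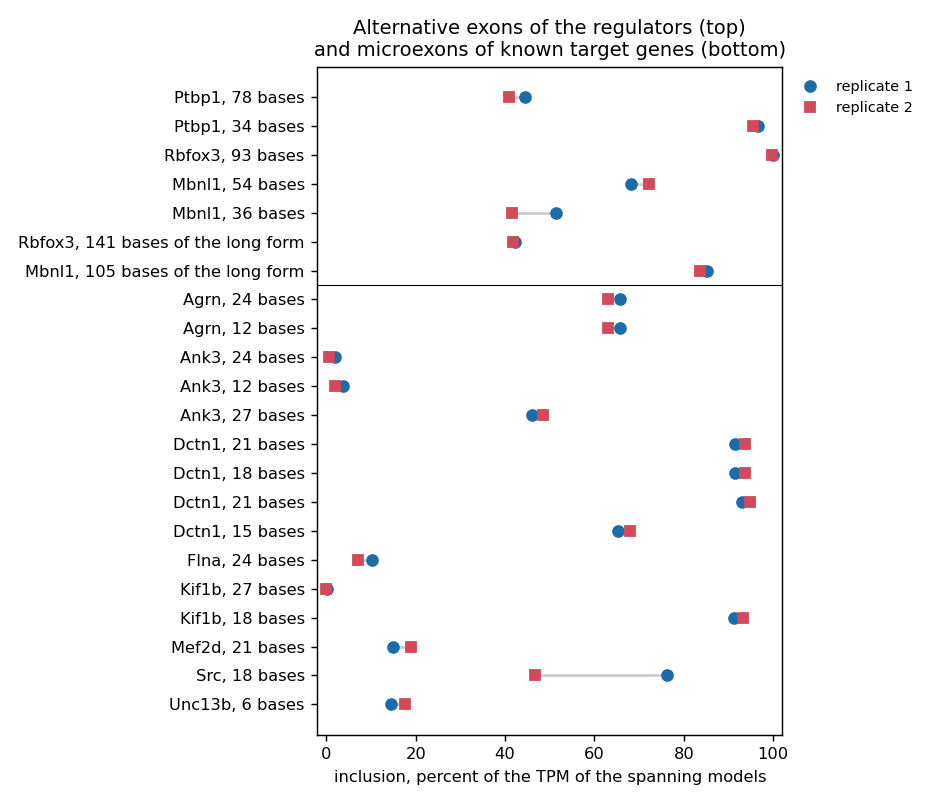
Inclusion (horizontal, percent of the TPM of models spanning the exon) of 7 alternative exons or exon parts of Ptbp1, Rbfox3 and Mbnl1 (above the line) and of 15 microexons in 8 known target genes (below it), each with its length in bases; circles are replicate 1 and squares replicate 2. Most pairs lie close together, and the 18-base exon of Src lies apart, at 76.2% and 46.7%.

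Across the regulators, 8 had at least 2 annotated transcripts, and 7 of these 8 had the same leading transcript in both libraries, beside 92.6% of 8248 genes at 5 TPM or more. The exception was Ptbp1, and by posterior mean shares all 8 had the same leading transcript. Coding transcripts held a median of 99.6% ± 0.247 of TPM over the 10 genes, against 97.4% over 10648 protein-coding genes. In 7 of 10 the coding share was at least 90% in both libraries, as in 61.6% of those genes. Besides Nova2, whose main transcript had no assigned type, the exceptions were Ptbp1 at 88.0% ± 0.642 and Mbnl1 at 77.9% ± 5.35. In Mbnl1, models with a retained intron held 18.6% and 14.4%, of which Mbnl1-225 made up 13.6 and 11.7 percentage points. In Ptbp1, retained-intron models held 9.42% and 7.65% and decay models 3.43% ± 0.611 (SD, n = 2). Ptbp2, Rbfox1, Rbfox2, Nova1 and Mbnl2 had only coding models annotated. Their coding share was therefore fixed at 100% whatever the reads, which raises the median and the count of 7 above.

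After scaling for library composition, 0 of 10 differed by 1.5-fold, a size that 3.46% of 14412 genes reached, 2.13% higher and 1.33% lower in replicate 2. With that background, a count of 0 among 10 is not particular to the regulators. Their median absolute log2 difference was 0.17, beside 0.12 for all genes. The largest difference upward was in Rbfox1, from 136.3 to 161.0 TPM, with a log2 difference in scaled counts of 0.27 and a 95% counting interval of 0.21 to 0.33. The largest downward was in Nova2, at -0.26, with an interval of -0.35 to -0.16. These intervals cover counting error only. Rbfox1, Rbfox3 and Nova1 were higher in replicate 2, and the other 7 were lower, with a median of -0.08 beside 0.008 for all genes.

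Some other gene lists leaned to 1 side between the libraries. Over all 14412 genes the median log2 difference was 0.008, with quartiles of -0.11 and 0.13. Of 26 general splicing factors, 25 were lower in replicate 2 (median -0.11), among them Hnrnpk, an abundant nuclear RNA-binding protein, at 1254 and 1128 TPM. Of 12 progenitor markers, 9 were lower (median -0.30), with Sox2, a stem cell factor, at 16.4 and 10.2 TPM. Fabp7, Hes5 and Hes1 of that list were higher, and its summed level was 1876 and 2108 TPM. Of 8 measured astrocyte markers, 7 were higher (median 0.52), with a summed level of 791 and 1225 TPM for the whole list of 10. Neuron markers were even in number, with 5 higher and 5 lower, but not each unchanged. Eno2 (log2 difference 0.53) and Snap25 (0.52) were among the higher, and Nefm (-0.43) and Dcx (-0.24) among the lower. Muscle, which also expresses RBFOX and muscleblind genes, left little signal: 3 of 10 muscle markers reached 1 TPM in both libraries, the highest being Acta1 at 7.62 and 8.73 TPM, and Myog was at 0.12 and 0.10 TPM. The part of these cell types in the differences among the regulators was not tested.

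**Figure D3:**
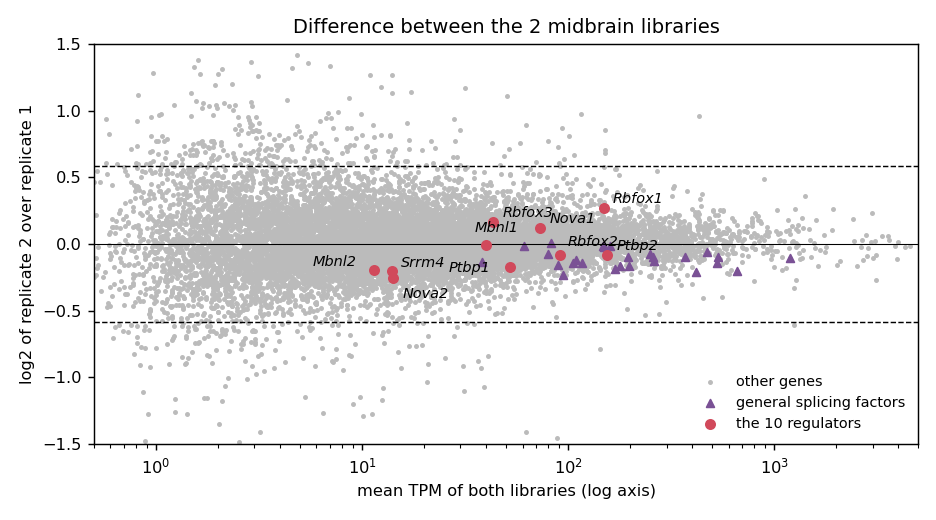
Log2 of replicate 2 over replicate 1 in scaled expected counts (vertical) against mean TPM on a log axis (horizontal) for 14412 genes in grey, general splicing factors as triangles and the 10 regulators as labelled circles; 59 genes fall outside the axes. Dashed lines mark 1.5-fold, and all 10 regulators lie between -0.26 and 0.27.

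The regulators were set beside 21 relatives and partners and 26 general splicing factors. Of the relatives, 18 reached 1 TPM in both libraries, led by Matr3, a nuclear matrix protein that works with PTBP1, at 717 and 669 TPM. Srrm2, a spliceosome scaffold, was at 378 and 335 TPM, and Rnps1, a microexon cofactor of SRRM4, was at 272 and 277 TPM. The 3 relatives under 1 TPM in both were Mbnl3 and the epithelial regulators Esrp1 (0.13 and 0.46 TPM) and Esrp2 (0.10 and 0.24 TPM). Rest, the repressor of neuronal genes that is itself a target of SRRM4, was at 4.06 and 4.12 TPM. All 26 general factors exceeded 10 TPM, with a median of 173.7 TPM ± 16.4 (SD, n = 2). Hnrnpa2b1 and Hnrnpa1 followed Hnrnpk at 711 and 599 TPM and at 556 and 508 TPM. The median of the 10 regulators, 47.6 TPM, was lower than that of the general machinery in both libraries.

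By distance in the log2 TPM of both libraries, among the 47 genes of those lists, the gene most like Ptbp1 was Khdrbs2 (53.4 and 48.5 TPM) at 0.044. The gene most like Ptbp2 was Srrm1 (163.3 and 142.3 TPM) at 0.060, and that most like Rbfox2 was Srsf4 at 0.070. Nova2, Srrm4 and Mbnl2 each had Ptbp3 as nearest gene, at 0.16, 0.16 and 0.39. Likeness over 2 libraries of 1 group reflects level only.

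Annotated alternative coding exons were then described over all genes, not selected for binding or control by these regulators. Among genes at 5 TPM or more, 358 annotated alternative coding exons of 3 to 27 bases were measurable in 244 genes, and their median inclusion was 39.6% in replicate 1 and 42.7% in replicate 2. Alternative exons of 28 to 300 bases numbered 4380 in 2020 genes, with a median inclusion of 91.5% and 91.4%. An exon counted as alternative where at least 1 other coding model had an intron over it. Exons skipped together by 1 unused model thus each entered, as in Agrn, where a 104-base and a 225-base exon were both at 100%. The longer class was not recomputed with 1 value per gene. The part of this counting in the difference between length classes was not tested. Median inclusion was higher in longer classes, going from 32.3% at 3 to 15 bases to 46.7% at 16 to 27 bases and 64.5% at 28 to 60 bases. Of the microexons, 19.3% were included above 90% and 30.2% below 10%, so both states were common. Whole codons made up 80.7% of microexons and 61.2% of the longer exons. Only models typed coding were used here. Exons whose skipping is annotated only in decay models were therefore left out, and the shares of whole codons depend on that choice. Inclusion was read from transcript shares, not from junction reads, so exons that lie in the same models have the same value.

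**Figure D4:**
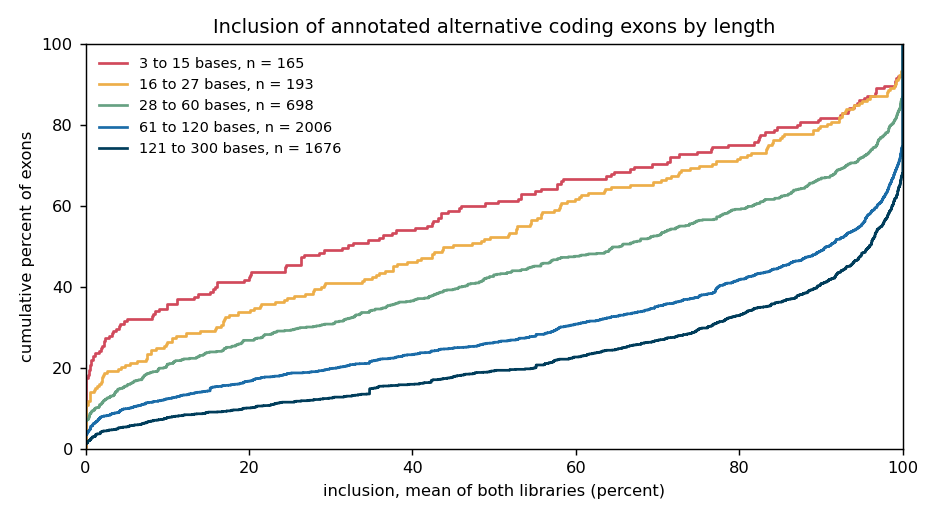
Cumulative percent of annotated alternative coding exons (vertical) by inclusion averaged over both libraries (horizontal, percent), in 5 length classes. Curves of shorter exons lie to the left, with a median of 32.3% at 3 to 15 bases and 64.5% at 28 to 60 bases.

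Of 30 genes known as targets of these regulators, all reached 1 TPM in both libraries and 26 reached 10 TPM. The highest were Mapt, which encodes tau, at 1009 and 1039 TPM, Pkm, pyruvate kinase, at 751 and 713 TPM, and Clta, clathrin light chain A, at 288 and 291 TPM. Of the 30, 19 could be read for exons, and microexons of 8 are described. Among the regulators, alternative coding exons could be read in Ptbp1, Rbfox3 and Mbnl1, and none of those read had 27 bases or fewer. A set of target microexons (capitals) with known neural or muscle use is shown.
Src, chr2:157458843-157458860, plus strand: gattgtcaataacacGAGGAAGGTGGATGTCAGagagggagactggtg
Agrn, chr4:156168546-156168569, minus strand: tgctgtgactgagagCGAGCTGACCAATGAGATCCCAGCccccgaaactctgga
Mef2d, chr3:88161781-88161801, plus strand: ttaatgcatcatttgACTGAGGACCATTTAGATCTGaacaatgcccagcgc
Unc13b, chr4:43233904-43233909, plus strand: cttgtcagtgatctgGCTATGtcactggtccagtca

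The 18-base exon of Src, the N1 exon that PTBP1 represses outside neurons, was included at 76.2% in replicate 1 and 46.7% in replicate 2. These values lie far apart, 61.5% ± 20.9 (SD, n = 2). The spanning models held 1873 and 2081 counts over their whole length. Reads that tell the exon in from out were not counted. In Agrn, the 24-base exon belongs to the neural form of agrin that clusters acetylcholine receptors, and NOVA proteins promote it. It was included at 65.6% and 62.9%, in the same model as a 12-base and a 33-base exon.

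Microexons of Mef2d, Unc13b and Flna had lower values. The 21-base exon of Mef2d, found in muscle and brain forms of this transcription factor, was at 14.9% and 19.0%. The 6-base exon of Unc13b, a synaptic vesicle priming protein, was at 14.6% and 17.6%. The 24-base exon of Flna, an actin cross-linker, was at 10.2% and 6.99%. These 3 exons were below 20% in both libraries.

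Kif1b and Dctn1 held exons of high and of lower inclusion. An 18-base exon of the kinesin Kif1b was included at 91.3% and 93.1%, and a 27-base exon of the same gene at 0.086% and 0%. In Dctn1, the large subunit of dynactin, exons of 21 and 18 bases shared values of 91.4% and 93.8%, a second 21-base exon was at 93.0% and 94.9%, and a 15-base exon was at 65.2% and 68.0%. In Ank3, ankyrin G, the 27-base exon was at 46.0% and 48.6%, whereas the 24-base and 12-base exons stayed under 4% in both libraries. Inclusion thus ranged from near 0 to above 90% within 1 gene.

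The clathrin light chains carry a 54-base exon typical of neurons, at matching places in both genes.
Clta, chr4:44030215-44030268, plus strand: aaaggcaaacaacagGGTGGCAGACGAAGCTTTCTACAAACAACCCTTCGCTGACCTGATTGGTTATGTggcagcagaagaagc
Cltb, chr13:54597026-54597079, minus strand: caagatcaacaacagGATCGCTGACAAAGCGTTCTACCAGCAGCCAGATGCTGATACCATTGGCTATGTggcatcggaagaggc
The Clta exon was included at 78.6% and 78.5%, and the Cltb exon at 66.1% and 64.6%. A second Clta exon, of 36 bases, was included at 5.39% and 4.07%, so the 54-base form prevailed in both libraries.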

How the data were processed

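RNA was extracted with the mirVana kit, and the labels link to the manual of the SMARTer Ultra Low RNA kit. Per the deposited readme files, reads were aligned to mm10 and quantified on GENCODE M4; the quantifier was not given in the sources used here. Per the file headers, the tables give expected counts, TPM and the percent of a gene's TPM on each transcript. Spike-in and other rows that are not Ensembl genes held 1.49% and 2.23% of counts and stayed out of library sizes. Gene names, transcript types, exons and sequences came from GENCODE M21 (GRCm38), joined by identifier with the version removed; exons were read only from models of equal length in both releases that held at least 80% of a gene's TPM, except for the regulators, where all equal models were used. Of 67 transcripts of the regulators, 58 had equal length.

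Libraries were compared as log2 ratios of expected counts scaled by TMM (edgeR 4.0.16), with 0.5 added, for genes with a mean of at least 50 counts; size factors of DESeq2 1.42.0 were an alternative. Values are given per library and as mean ± SD over 2 libraries. With 1 group there was no test. Exon inclusion is the percent of spanning TPM, with at least 1 TPM on spanning models. Spanning models can hold only part of a gene's TPM, as in Agrn, with 43.5 and 42.2 of 109.3 and 104.9 TPM. The scripts were tested on simulated data. Named genes were all regulators, the 3 highest of each gene list, list members under 1 TPM, genes of the family ratios, the nearest gene in level and microexons of the listed targets; other genes and exons named were chosen after their values were seen, as were the region markers. Some exons of target genes are not reported here. The regulators, lists and ratios were chosen with earlier results of these data known.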

Additional observations from a re-analysis of the deposited data

How the results depend on the processing

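No paired analysis was possible because there was 1 group of 2 libraries, and differences between the libraries could not be recomputed with a library left out. The directions of 2 family ratios depended on the processing. Rbfox1 over Rbfox2 turned with expected counts (log2 -1.47), and Srrm4 over Srrm3 turned with expected counts (0.56) and with coding models of at least 1000 bases (0.73, an alternative added after seeing the data). The other ratios kept their direction. With expected counts, Ptbp2 over Ptbp1 was 1.94, Rbfox3 over Rbfox2 -2.47 and Mbnl1 over Mbnl2 1.23. With coding transcripts only, Ptbp2 over Ptbp1 was 1.76, Nova1 over Nova2 3.59, Mbnl1 over Mbnl2 1.45 and Srrm4 over Srrm3 -1.95. With coding models of at least 1000 bases, Ptbp2 over Ptbp1 was 1.83, Nova1 over Nova2 3.59 and Mbnl1 over Mbnl2 0.92. With posterior mean TPM, Ptbp2 over Ptbp1 was 1.44 and the median coding share 99.1%. With posterior mean isoform shares, 8 regulators instead of 7 had the same leading transcript in both libraries. With 1 added to TPM, Srrm4 over Srrm3 was -2.23. Median microexon inclusion was 32.3% for 3 to 15 bases, 44.0% with all transcript types and 45.8% with 1 value per gene (added after seeing the data). Of 81 recomputed main values, 62 moved by less than the spread between libraries or stayed within 1.5 times of a count. For the median difference between libraries, the spread among the regulators was used instead. Among the 62 are ratios and median shares with 1 library left out. With 2 libraries these cannot move past the spread, so they say nothing about stability. Counts at 10 TPM fell from 10 to 9 with coding transcripts only (Nova2) and to 7 with the threshold doubled. Low counts limit Mbnl3, the decay models of Ptbp1 and short partial models.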

Other observations

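Several longer exons of the target genes fell into other patterns. Cacna1c, a calcium channel, has pairs of exons of equal length that replace each other. The 60-base pair was included at 58.0% and 56.4% for 1 exon and at 41.7% and 43.6% for the other, and the 84-base pair at 58.3% and 56.4% and at 43.0% and 43.6%, on 736 and 906 counts. Both members of each pair were thus in use. In Mapt, the 87-base exons near the start of tau, which are added as the brain matures, were included at 14.9% and 16.1% and at a mean of 15.5% ± 0.745 (SD, n = 2), and a 198-base exon at 0.99% and 0.73%. In Grin1, a subunit of NMDA receptors, the 63-base exon was included at 10.4% and 11.2% and the 111-base exon at 30.7% and 31.1%. In the partner gene Srrm1, a 42-base exon was included at 54.7% and 40.7%. The models spanning it held 37.0 and 31.5 TPM of the gene's 163.3 and 142.3 TPM, so the values describe only that part of Srrm1.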
